A study of Danio rerio with 3 samples.

Results

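Transcript levels were compared between 2 whole-embryo RNA-sequencing libraries of the zebrafish AB strain, both taken at 4.3 hours post fertilization (hpf). One library came from wild-type embryos with the stage tag Dome. The other came from embryos of the genotype MZ nup85-/-;nup133-/-, maternal-zygotic double mutants whose label carries the stage tag 1k. Embryos were whole and dechorionated, the mutant alleles are not described, and the labels do not state how many were pooled. Genotype and stage tag differ together between the libraries, so what belongs to either cannot be told apart. A further library, from embryos of the same mutant genotype at 7 hpf with the stage tag Dome, is used only to show where the genes stood later. Genes were chosen by level alone. Of 26437 genes in the deposited table, 25386 had values and 10631 reached at least 5 FPKM (fragments per kilobase of transcript, relative to the size of the library) in the higher of the 2 libraries. These 10631 genes are called kept. At the threshold, bach2a and tmem55bb were just inside, both at 5.0 FPKM in the higher library, and ltk and cox7b were just outside, both at 4.99 FPKM. Differences are given as log2((mutant + 1)/(wild type + 1)) of the FPKM, which understates the difference of low genes. There was 1 library per group, so no difference has a replicate check and none was tested. Genes and groups are described by size only, and a gene's levels are given with wild type first and the mutant second.

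In the early zebrafish embryo, development runs first on messenger RNA and protein that the mother stored in the egg. Transcription of the embryo's own genome then starts in earnest during the blastula period, when the maternal factors Nanog, Pou5f3 and Sox19b open the regulatory regions of the first zygotic genes, and much of the maternal RNA is cleared. A transcript in an embryo of this age can therefore be maternal, zygotic or both. Nup85 and Nup133 are subunits of the Y complex, the outer scaffold of the nuclear pore, through which proteins and RNA pass between nucleus and cytoplasm.

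Of the mutated genes, nup133 was at 11.7 FPKM in wild type against 0.31 in the mutant (log2 ratio -3.27). nup85 stood at 13.2 against 10.35 FPKM (log2 ratio -0.33), so its transcript level does not check the genotype. A mutation need not lower its own transcript. The column sums were 424486 FPKM in wild type, against 397357 in the mutant. The depth is unknown, because the table gives no counts. The 100 most abundant genes took 15.2% of the wild-type sum and 9.79% of the mutant sum. Markers of differentiated tissues that a blastula should lack summed over 5 genes to 2.41 FPKM in wild type, against 0.11 in the mutant. The 5 germ plasm markers were above 1 FPKM in both libraries and summed to 314 and 438 FPKM. Of these, buc and dazl were higher in the mutant library, and ddx4, dnd1 and nanos3 were lower but within 2-fold.

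Most transcripts stood at similar levels in both libraries, and those that were missing from the mutant library were few. They included 20 of the 99 kept transcription factors that pattern the embryo. Most of the missing transcripts came from genes without a descriptive name. Within 2-fold of each other were 7819 of the 10631 kept genes (73.5%), and these made up 80.7% of the wild-type sum and 81.4% of the mutant sum. At least 4-fold lower in the mutant library were 417 genes (3.92%), and at least 4-fold higher were 325 (3.06%). The order of these 2 counts depended on the setting. Scaling to equal sums gave 397 lower and 403 higher. At 2-fold more genes were higher than lower. There were 892 genes at least 2-fold lower in the mutant library (8.39%), against 1920 that stood 2-fold or more higher (18.1%). The median log2 ratio was 0.20, with quartiles at -0.31 and 0.78.

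A gene is called absent from a library here where it was below 1 FPKM there and at least 5 FPKM in the other. Absent from the mutant library were 264 genes (2.48% of the kept genes), of which 24 were listed at 0. Absent from the wild-type library were 101 genes (0.95%), with 3 listed at 0. The genes absent from the mutant library reached higher levels where they were present. In wild type they went up to 222 FPKM with a median of 10.5, and they supplied 1.38% of the wild-type sum. Those absent from wild type went up to 26.5 FPKM in the mutant library, with a median of 7.22, and supplied 0.212% of its sum. The limit at 1 FPKM cuts through a continuous range. Just inside it were trim25 and psme1, at 0.99 and 0.98 FPKM in the mutant library, and just outside it were unnamed loci at 1.0 and 1.01 FPKM.

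**Figure D1:**
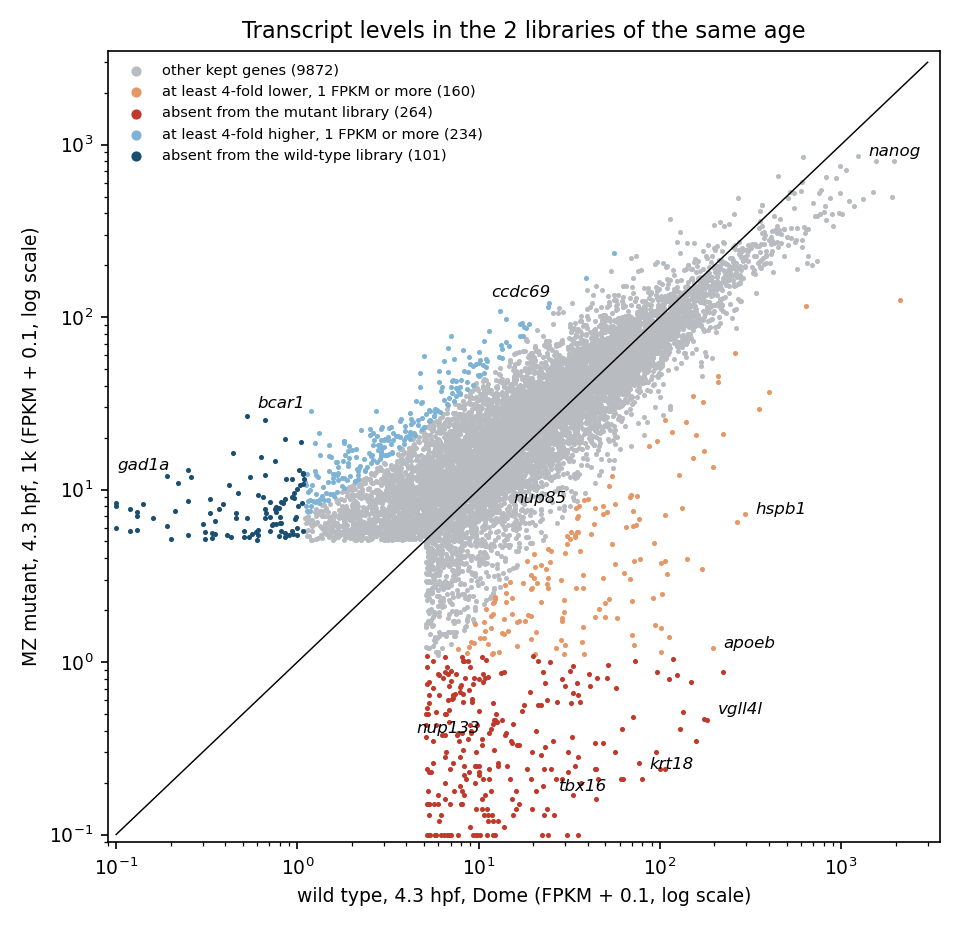
FPKM of the kept genes in the wild-type library (x axis) and in the mutant library of the same age (y axis), both on log scales after adding 0.1, with 1 point per gene and the line of equality. The 264 genes absent from the mutant library lie along the bottom and reach 222 FPKM in wild type, while the 101 genes absent from wild type lie at the left and reach 26.5 FPKM in the mutant library.

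The ratio also differed with level. Among kept genes with a mean of 5 to 10 FPKM over both libraries the median log2 ratio was 0.43, at 50 to 100 FPKM it was -0.07, and among the 34 genes with a mean of 500 FPKM or more it was -0.90. Abundant transcripts thus tended to stand lower in the mutant library and scarce ones higher. FPKM are shares of a library, so a lower share of the abundant genes and a higher share of the rest go together. Among the most abundant wild-type transcripts, the elongation factor gene eef1a1l1 stood at 1913 FPKM in wild type against 493 in the mutant (log2 ratio -1.95). The cytoskeletal actin gene actb2 was at 1497 against 529 FPKM (log2 ratio -1.50). The constitutive chaperone gene hspa8 stood at 1327 against 481 FPKM (log2 ratio -1.46). In the mutant library the most abundant transcript was nanog, at 1244 against 861 FPKM (log2 ratio -0.53), followed by the mitotic cyclin gene ccnb2, at 615 against 844 FPKM (log2 ratio 0.46).

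Transcription factors that pattern the embryo held the highest share of absent genes among the blocks of lists examined with more than 20 kept genes. Of 99 kept genes over 6 lists, 20 (20.2%) were absent from the mutant library, 39 (39.4%) lay 4-fold or more below wild type and 32 (32.3%) were within 2-fold, against 2.48%, 3.92% and 73.5% of all kept genes. On the other side, 8 (8.08%, against 3.06% of all kept genes) lay 4-fold or more above wild type. At 2-fold or more above were 24 (24.2%, against 18.1%). Many members were kept only because they were high in wild type, and others only through the mutant library. Such members had to differ, so these counts describe the lists without testing them. Of the homeobox and paired-box list, 65 genes had values, 22 were kept and 11 were at least 4-fold lower. noto, the notochord homeobox gene, stood at 35.3 FPKM in wild type against 0.18 in the mutant (log2 ratio -4.94). The ventral repressors vox and ved, which hold back organizer genes, behaved alike, with vox at 71.6 against 3.77 FPKM (log2 ratio -3.93). For ved the levels were 40.8 against 0.75 FPKM (log2 ratio -4.58). Their relative vent was lower too, at 10.4 against 0.26 FPKM (log2 ratio -3.17).

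Of the 6 kept T-box and Gata factors, 4 were at least 4-fold lower. tbx16, which directs mesoderm cells during gastrulation, was at 60.9 FPKM in wild type against 0.11 in the mutant (log2 ratio -5.80). ta, the brachyury gene of the notochord and tail, was low in wild type too, at 8.98 against 0.3 FPKM (log2 ratio -2.94). gata3 and gata2a, early genes of the ventral and non-neural ectoderm, were likewise absent, with gata3 at 40.85 against 0.63 FPKM (log2 ratio -4.68). gata2a was at 23.2 against 0.66 FPKM (log2 ratio -3.87). The others were tbr1b, described below, and eomesa, which the mother supplies to the egg, at 111 against 154 FPKM (log2 ratio 0.48). Forkhead genes were divided more evenly. foxd3, a Nodal-responsive gene later used in neural crest, stood at 25.9 against 0.03 FPKM (log2 ratio -4.71). foxa3, an endoderm and axial mesoderm factor, stood at 15.9 against 0.04 FPKM (log2 ratio -4.02). Against these, foxh1, the maternal partner of the Nodal effector Smad2, was at 88.9 against 52.3 FPKM (log2 ratio -0.75), and foxj3 stood at 19.6 against 61.5 FPKM (log2 ratio 1.60). Of the 19 kept forkhead genes, 5 (26.3%, against 3.92% of all kept genes) were at least 4-fold lower. Within 2-fold were 7 (36.8%, against 73.5%), and 7 (36.8%, against 18.1%) lay 2-fold or more above wild type.

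Zinc finger and basic helix-loop-helix regulators followed. zic2b, a Zic-family factor of dorsal and neural ectoderm, stood at 101 FPKM in wild type against 1.47 in the mutant (log2 ratio -5.37). grhl3, a grainyhead factor of surface epithelium, was at 107 against 6.99 FPKM (log2 ratio -3.76). snai1a, a maternal and zygotic Snail gene, was level at 114 against 124 FPKM (log2 ratio 0.12). her5, a Hairy and Enhancer-of-split repressor expressed in early endoderm, stood at 102 against 1.04 FPKM (log2 ratio -5.65). id1, an inhibitor of such factors and a common target of Bmp signals, stood at 196 against 13.45 FPKM (log2 ratio -3.77). Among the Myc genes, mych was at 92.9 against 4.77 FPKM (log2 ratio -4.02), while mycla was within 2-fold, at 509 against 263 FPKM (log2 ratio -0.95). myclb was higher, at 25.6 against 91.3 FPKM (log2 ratio 1.79).

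The maternal activators of the genome did not share this difference. pou5f3 was near equality, at 520.3 FPKM in wild type against 533 in the mutant (log2 ratio 0.03). sox19b stood at 129 against 313 FPKM (log2 ratio 1.27). nanog, given above, was within 2-fold. Other Sox genes were divided. sox3 was low at 68.1 against 8.99 FPKM (log2 ratio -2.79), and so was sox19a at 46.3 against 1.94 FPKM (log2 ratio -4.01). By contrast, sox21a stood at 1.44 against 15.4 FPKM (log2 ratio 2.75) and sox8b at 1.7 against 19.04 FPKM (log2 ratio 2.89). Both passed the filter through the mutant library alone, so they had to be higher there. Among 8 kept Sox genes, 3 lay 4-fold or more below wild type and 2 as far above. The transcripts of the activators were thus present in the mutant library beside low levels of many patterning factors. These data hold no measure of the proteins.

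**Figure D2:**
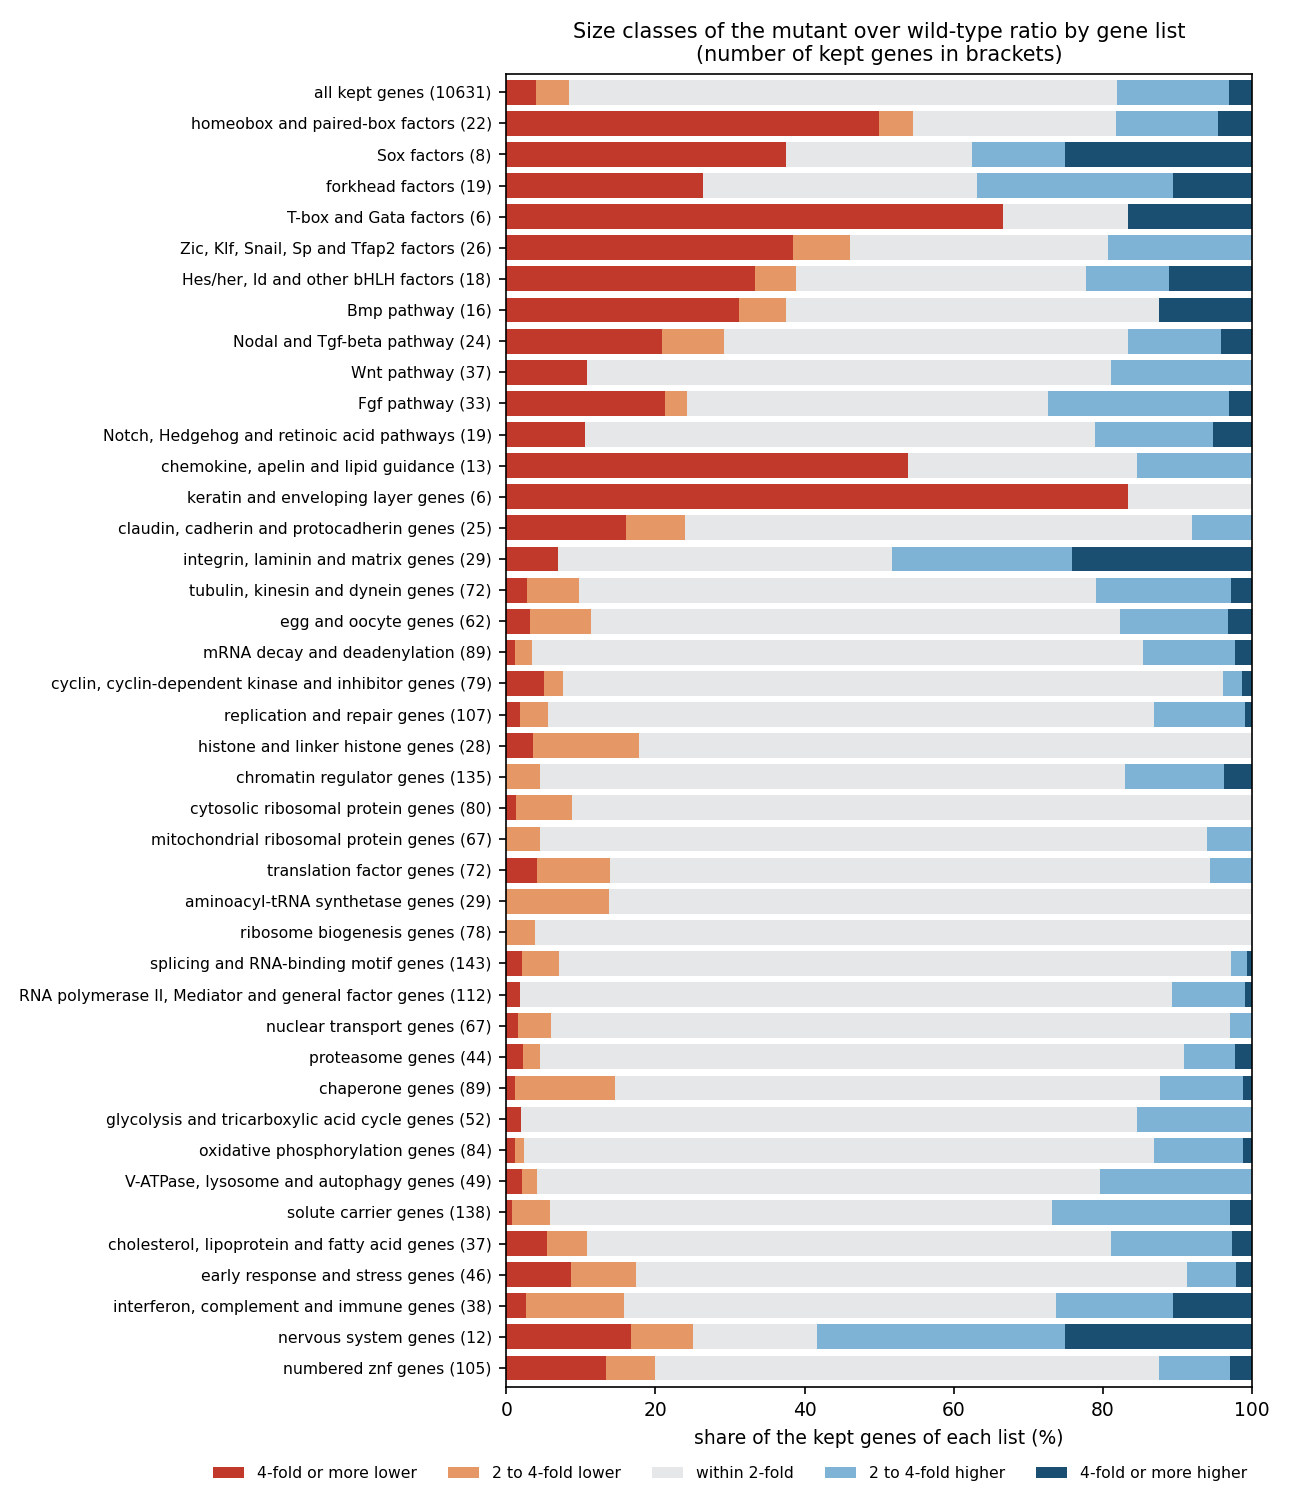
Share of the kept genes of each list shown (x axis, %) in 5 size classes of the mutant over wild-type ratio, with the number of kept genes in brackets and all kept genes on top. The red parts are widest for keratin and enveloping layer genes, T-box and Gata factors, chemokine and apelin genes and homeobox factors, and no more than 4.17% wide for the lists of the gene expression machinery.

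Signalling genes were examined by the role of their product, a division made with the values known. Of 142 kept signalling genes, 30 were at least 4-fold lower, and those given no role are counted only there. Of 23 kept ligands and secreted antagonists, 11 were at least 4-fold lower in the mutant library and 9 (39.1%, against 2.48% of all kept genes) were absent. Their median log2 ratio was -1.86. Of 19 intracellular feedback inhibitors and targets, 8 were at least 4-fold lower and the median was -0.88. Of 36 receptors and co-receptors, 8 were at least 4-fold lower and 18 within 2-fold, with a median of 0.24. Of 49 intracellular transducers and nuclear effectors, 1 was at least 4-fold lower and 38 were within 2-fold. The latter share was 77.6%, near the 73.5% of all kept genes, and the median was 0.21. The median of all kept genes was 0.20. The shares at least 4-fold lower were 47.8% of the ligands, 42.1% of the feedback genes, 22.2% of the receptors and 2.04% of the transducers, against 3.92% of all kept genes. Members below 5 FPKM in the mutant library, such as admp, lft1 and fgf17, were kept only through wild type. They had to be lower in the mutant library, so these shares are in part set by the filter. The roles were not matched for level.

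Among ligands, bmp2b, which specifies ventral fates, stood at 26.6 FPKM in wild type against 0.11 in the mutant (log2 ratio -4.64). Its antagonist chd (chordin), made on the dorsal side, was at 11.9 against 0.02 FPKM (log2 ratio -3.66). admp, a Bmp ligand of the organizer, stood at 6.1 against 0.03 FPKM (log2 ratio -2.79). Both sides of the dorsoventral axis were thus low. The Nodal antagonists lft1 and lft2 were absent, with lft2 at 10.3 against 0.97 FPKM (log2 ratio -2.52). The Nodal ligand gene ndr1 stood at 11.99 against 2.59 FPKM (log2 ratio -1.86), and its maternal partner gdf3 was at 350.1 against 259 FPKM (log2 ratio -0.44). wnt11, a non-canonical Wnt of gastrulation movements, stood at 26.6 against 1.11 FPKM (log2 ratio -3.71). fgf17, an Fgf ligand of the embryo margin, stood at 7.74 against 0.25 FPKM (log2 ratio -2.81). apela, the small peptide hormone that guides mesendoderm through the apelin receptors, was at 33.1 against 0.07 FPKM (log2 ratio -4.99). The chemokine gene cxcl12a stood at 9.55 against 0.15 FPKM (log2 ratio -3.20). gdf6a was the 1 ligand at least 4-fold higher, at 2.03 against 12.98 FPKM (log2 ratio 2.21). The rows for wnt8a and wnt8-2 list identical values, so they are not separate measurements.

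Of the 8 low receptor genes, 5 serve cell guidance. aplnra stood at 23.6 FPKM in wild type against 0.04 in the mutant (log2 ratio -4.56), and aplnrb at 63.2 against 3.2 FPKM (log2 ratio -3.93). The chemokine receptor gene cxcr4a was at 68.2 against 2.92 FPKM (log2 ratio -4.14), and ackr3b, a scavenger of the same chemokine, at 29.7 against 1.15 FPKM (log2 ratio -3.84). Ligand and receptors of the apelin and the Cxcl12 systems were low together. fgfr4, an Fgf receptor gene, stood at 15.1 against 0.06 FPKM (log2 ratio -3.93). By contrast, the Bmp receptor gene acvr1l stood at 91.2 against 75.5 FPKM (log2 ratio -0.27), and the Wnt receptor gene fzd7b at 82.2 against 82.85 FPKM (log2 ratio 0.01).

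Of the transducers, the Bmp effector smad5 was at 279.5 FPKM in wild type against 223 in the mutant (log2 ratio -0.32). The Nodal effector smad2 stood at 107 against 196 FPKM (log2 ratio 0.86). The beta-catenin gene ctnnb2 was level, at 261 against 263 FPKM (log2 ratio 0.01). prickle1b, a planar polarity gene, was the only transducer at least 4-fold lower, at 20.6 against 0.08 FPKM (log2 ratio -4.32). Of the 19 feedback genes and targets, 9 (47.4%, against 8.39% of all kept genes) lay 2-fold or more below wild type. Within 2-fold were 5 (26.3%, against 73.5%), and 5 (26.3%, against 18.1%) lay 2-fold or more above. dusp6, a phosphatase induced by Fgf, stood at 30 against 0.63 FPKM (log2 ratio -4.25). lfng, a Notch-modifying glycosyltransferase, was at 49.7 against 1.73 FPKM (log2 ratio -4.21). dact1, a modulator of Wnt signalling, stood at 10.5 against 0.11 FPKM (log2 ratio -3.37). In the other direction, axin2, a feedback gene of Wnt signalling, stood at 7.43 against 21.98 FPKM (log2 ratio 1.45), and etv5a, an ETS factor downstream of Fgf, was at 75.4 against 185 FPKM (log2 ratio 1.29).

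**Figure D3:**
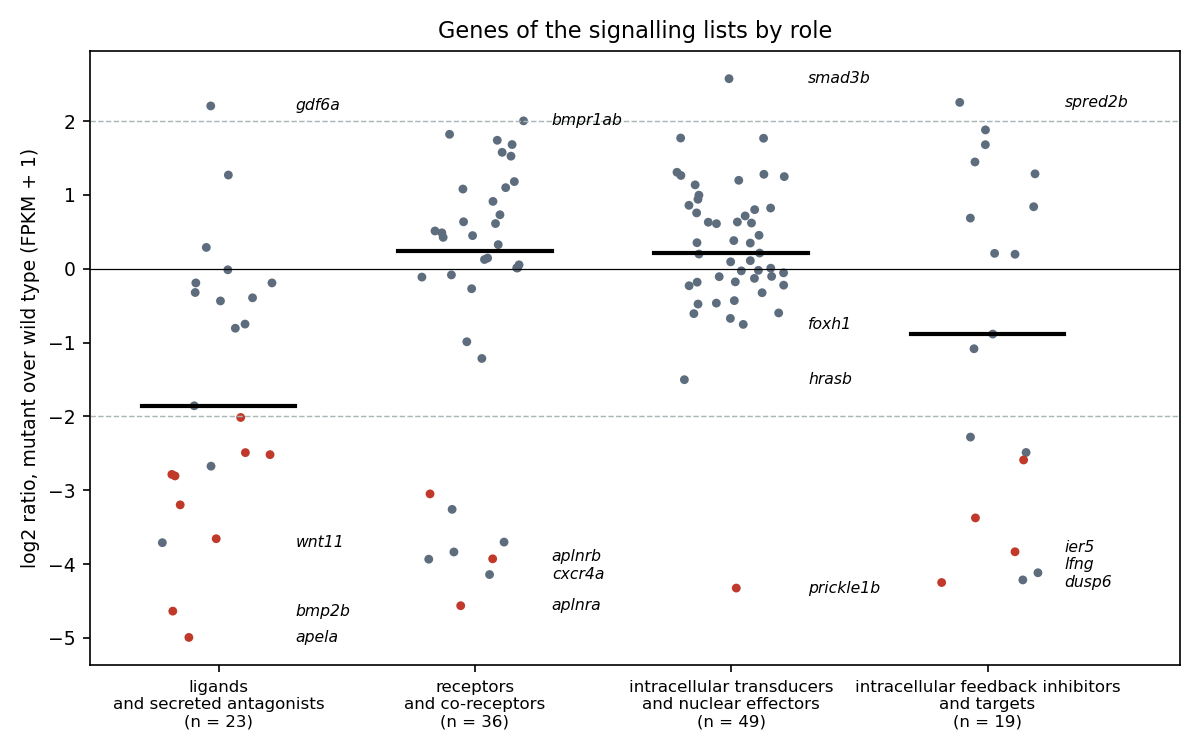
Log2 ratio of mutant over wild type (y axis, FPKM + 1) for each kept gene of the signalling lists, in 4 columns by role, with red points for genes absent from the mutant library, bars at the medians and dashed lines at 4-fold. The ligand column has its median at -1.86, while the transducer column has its median at 0.21 with 1 gene, prickle1b, below the lower dashed line.

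Epithelial genes of the enveloping layer, the thin outer cover of the blastula, were low, apart from ppl (periplakin). Of the keratin and enveloping layer list, 31 genes had values, 6 were kept and 5 of these (83.3%, against 3.92% of all kept genes) were at least 4-fold lower. Those 5 were below 5 FPKM in the mutant library. They were kept only through wild type and had to be lower in the mutant, so this share is in part set by the filter. krt18 stood at 76.8 FPKM in wild type against 0.16 in the mutant (log2 ratio -6.07), krt4 at 22.6 against 0.09 FPKM (log2 ratio -4.44) and krt8 at 35.99 against 4.31 FPKM (log2 ratio -2.80). ppl was at 6.15 against 10.1 FPKM (log2 ratio 0.63). The surface protein gene lye was at 35.4 FPKM in wild type and was listed at 0 in the mutant library. The 9 markers of this layer summed to 147 FPKM in wild type, against 5.41 in the mutant library, where 3 were listed at 0. Those 3 were low in wild type too, with krt17 at 0, agr2 at 0.15 and krt92 at 2.28 FPKM. In whole embryos, fewer cells of a type and less RNA per cell cannot be told apart. The 5 markers of the yolk syncytial layer, the nuclei-rich zone between cells and yolk, summed to 90.6 and 3.89 FPKM, with mxtx1 and mxtx2, homeobox regulators of that layer, making up most of it. mxtx2 stood at 77.25 against 3.86 FPKM (log2 ratio -4.01). Among the claudin genes of epithelial barriers, cldne was at 22.1 against 0.46 FPKM (log2 ratio -3.98). The more abundant claudin gene cldnd stood at 271 against 489 FPKM (log2 ratio 0.85), and the E-cadherin gene cdh1 was level, at 148 against 191 FPKM (log2 ratio 0.37). Of 25 kept claudin, cadherin and protocadherin genes, 17 (68.0%, against 73.5% of all kept genes) were within 2-fold. At least 4-fold lower were 4 of the 25, a larger share than the 3.92% of all kept genes. Members such as cldne were kept only through wild type and had to be lower, so that share is in part set by the filter.

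The apolipoprotein gene apoeb, a product of the yolk syncytial layer, had 1 of the widest differences of all, at 197 FPKM in wild type against 1.1 in the mutant (log2 ratio -6.56). apoc1, another apolipoprotein gene, stood at 7.49 against 0.28 FPKM (log2 ratio -2.73). has2, whose enzyme makes hyaluronan for migrating cells, was at 19.6 against 0.04 FPKM (log2 ratio -4.31). Of 72 kept tubulin, kinesin and dynein genes, 50 (69.4%) were within 2-fold, against 73.5% of all kept genes. On the low side, dynll1, a dynein light chain gene, stood at 152 against 15.1 FPKM (log2 ratio -3.25). Of the actin regulators, pfn1 (profilin, which feeds actin filaments) stood at 259.9 against 61.8 FPKM (log2 ratio -2.05).

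Most of the absent transcripts came from genes without a descriptive name. Of the 264 absent genes, 143 (54.2%) had a symbol that only numbers a clone or locus, against 17.2% of all kept genes and 14.2% of those within 2-fold. Among genes at least 4-fold lower the share was 48.7%, and among those at least 4-fold higher it was 20.6%. The unnamed locus si:dkey-228b2.6 was at 129 FPKM in wild type against 0.31 in the mutant (log2 ratio -6.64), and was picked after its values were seen. Numbered zinc finger genes were divided at the number 900, a limit that was not in the planned design. Of 39 kept genes with numbers from 900 upward, 13 (33.3%, against 3.92% of all kept genes) were at least 4-fold lower. Of the same 39, 7 (17.9%, against 2.48%) were absent and 18 (46.2%, against 73.5%) were within 2-fold. Their median log2 ratio was -0.89. Of 66 with lower numbers, 1 (1.52%) was at least 4-fold lower and 53 (80.3%) were within 2-fold, with a median of 0.32. znf1043 stood at 222 against 0.77 FPKM (log2 ratio -6.98), and znf995 at 106 against 0.14 FPKM (log2 ratio -6.55). znf706, of the lower-numbered group, stood at 143 against 136 FPKM (log2 ratio -0.06). How reads shared by near-identical copies of such genes were divided is not given, so single values of this family are uncertain.

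The order of these genes along the chromosomes was also examined. With the kept genes placed in the order of a RefSeq annotation, 79 of the 349 placed genes at least 4-fold lower (22.6%) had another such gene as a direct neighbour, compared with 564 of the 9975 other genes (5.65%). For genes at least 4-fold higher the shares were 10.5% and 5.83%. There were 10 runs of 3 or more consecutive genes that were all at least 4-fold lower, holding 41 genes, and 40 of these were numbered zinc finger or unnamed genes. The longest run had 7 genes. The named exception was drl (draculin), a zinc finger gene of early blood and heart precursors, which was at 27.1 FPKM in wild type against 0.49 in the mutant (log2 ratio -4.24) in a run with 3 unnamed loci. Neighbouring copies of a family can share reads, and the part of that in the runs was not tested.

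The cell cycle machinery was mostly present. Of 79 kept cyclin, kinase and inhibitor genes, 70 (88.6%) were within 2-fold, against 73.5% of all kept genes. At a mean of 50 to 100 FPKM, 89.7% of all kept genes were within 2-fold, and the list was not matched for level. The 4 genes at least 4-fold lower (5.06%, against 3.92% of all kept genes) were ccnd1, cdkn1ca, cdkn1cb and ccne2. The mitotic cyclin gene ccnb1 stood at 989 FPKM in wild type against 751 in the mutant (log2 ratio -0.40), and ccna2 at 935 against 638 FPKM (log2 ratio -0.55). ccnd1, the D-type cyclin that promotes entry into the cycle from G1, stood at 70.15 against 1.33 FPKM (log2 ratio -4.93). The kinase inhibitor gene cdkn1ca was at 28.6 against 0.7 FPKM (log2 ratio -4.12), and its copy cdkn1cb at 12.5 against 0.35 FPKM (log2 ratio -3.32). ccne2, an E-type cyclin gene, stood at 11.9 against 1.8 FPKM (log2 ratio -2.20). In replication and repair, 87 of 107 kept genes (81.3%) were within 2-fold. mcm6, a subunit of the replicative helicase, stood at 5.39 against 0.13 FPKM (log2 ratio -2.50), and its relative mcm6l at 99.4 against 47.1 FPKM (log2 ratio -1.06). The DNA clamp gene pcna was at 384 against 226 FPKM (log2 ratio -0.76).

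Chromatin genes showed no member absent from the mutant library, against 2.48% of all kept genes. Of 135 kept chromatin regulators, 106 (78.5%) were within 2-fold, 6 (4.44%) lay 2-fold or more below wild type and 23 (17.0%) as far above. The shares of all kept genes were near these, at 73.5%, 8.39% and 18.1%. The de novo methyltransferase gene dnmt3aa stood at 1.39 FPKM in wild type against 12.7 in the mutant (log2 ratio 2.52). The ARID-domain genes arid4a and arid3a were higher, with arid4a at 14.04 against 71.8 FPKM (log2 ratio 2.28). On the low side, the bromodomain gene brd2a stood at 169 against 52.1 FPKM (log2 ratio -1.68). The linker histone gene histh1l was at 13.7 against 1.36 FPKM (log2 ratio -2.64), and the maternal linker histone gene h1m at 865 against 489 FPKM (log2 ratio -0.82). hmga1a, an abundant chromatin protein gene, stood at 1107 against 473 FPKM (log2 ratio -1.23).

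Transcripts for the expression of genes in general persisted. Of 648 kept genes in 8 lists, from RNA polymerase II to ribosomes, 579 (89.4%, against 73.5% of all kept genes) were within 2-fold. Of the 648, 10 (1.54%, against 3.92% of all kept genes) were 4-fold or more below wild type. As far above were 2 (0.309%, against 3.06%). The share within 2-fold also differed with level. Of all kept genes it was 64.5% at a mean of 5 to 10 FPKM and 89.7% at 50 to 100 FPKM. The lists were not matched for level, and the part of level in the 89.4% was not tested. The median over the 648 genes was -0.21, against 0.20 for all kept genes. The cytosolic ribosomal protein genes were the lowest of these lists, with a median of -0.64, and 73 of 80 within 2-fold. rpl12, of the large subunit, was the furthest from equality, at 640.01 FPKM in wild type against 116 in the mutant (log2 ratio -2.45). The mitochondrial ribosomal protein genes had a median of 0.30. Of the translation factors, eif5, an initiation factor gene, stood at 127 against 12.03 FPKM (log2 ratio -3.30). Splicing and RNA-binding genes had a median of -0.41 and included srsf5a, at 208 against 41.75 FPKM (log2 ratio -2.29), and the very abundant hnrnpabb, at 1549 against 805 FPKM (log2 ratio -0.94). In the polymerase and general factor list, polr3gla, which encodes a form of a subunit of RNA polymerase III, was at 48.2 against 0.24 FPKM (log2 ratio -5.31). The gene polr3g for the alternative form stood at 0.7 against 6.85 FPKM (log2 ratio 2.21). The general factor gene tbp was level, at 252 against 254 FPKM (log2 ratio 0.01).

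Genes of energy and protein economy were within 2-fold about as often as all kept genes, with 75.7% of 489 against 73.5%. In glycolysis and the tricarboxylic acid cycle, 43 of 52 kept genes (82.7%) were, and gapdh stood at 163 FPKM in wild type against 211 in the mutant (log2 ratio 0.37). In oxidative phosphorylation 71 of 84 were within 2-fold (84.5%), in the proteasome 38 of 44 (86.4%), among chaperones 65 of 89 (73.0%) and among solute carriers 93 of 138 (67.4%). psme1, an activator subunit of the proteasome, was at 19.8 against 0.98 FPKM (log2 ratio -3.39), while psmb5, a catalytic subunit gene, stood at 105 against 113 FPKM (log2 ratio 0.10). Among chaperones, the small heat shock gene hspb1 stood at 295 against 7.11 FPKM (log2 ratio -5.19), and the cytosolic chaperone gene hsp90ab1 at 735 against 212 FPKM (log2 ratio -1.79). The mitochondrial carrier gene slc25a22 was the 1 solute carrier gene at least 4-fold lower, at 91.4 against 2.24 FPKM (log2 ratio -4.83), among 138 kept. Of the 138, 37 (26.8%, against 18.1% of all kept genes) lay 2-fold or more above wild type and the median was 0.45, which was 0.24 with a filter at 20 FPKM.

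Stress and defence genes were mixed, with list medians of -0.01 for early response and stress genes and 0.64 for immune genes. The immune median was 0.31 with a filter at 1 FPKM, 0.20 with one at 20 FPKM and 0 with none. Of 46 kept early response and stress genes, 34 were within 2-fold (73.9%). The stress-response factor gene atf4a was at 20.8 FPKM in wild type against 2.77 in the mutant (log2 ratio -2.53), and the immediate early gene jun at 5.21 against 0.48 FPKM (log2 ratio -2.07). ddit4, a brake on growth signalling, stood at 141 against 269 FPKM (log2 ratio 0.92). In the immune list, isg15, a ubiquitin-like interferon-response gene, stood at 21.99 against 2.12 FPKM (log2 ratio -2.88), and nfkb1, an inflammatory transcription factor gene, at 9.01 against 34.25 FPKM (log2 ratio 1.82).

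Maternal and germ line transcripts were divided much as all kept genes were. Of 62 kept egg and oocyte genes, 44 (71.0%) were within 2-fold, against 73.5% of all kept genes, and 11 (17.7%) lay 2-fold or more above wild type, against 18.1%. The other 7 (11.3%, against 8.39%) lay as far below. figla, a transcription factor of oocytes, was at 4.66 FPKM in wild type against 47.4 in the mutant (log2 ratio 3.09). The germ plasm organizer gene buc stood at 124 against 274 FPKM (log2 ratio 1.13), and the germ cell RNA-binding gene dazl at 10.9 against 36.1 FPKM (log2 ratio 1.64). The other germ plasm markers were lower but within 2-fold, with ddx4 at 133 against 87.4 FPKM, dnd1 at 23.6 against 19.1 and nanos3 at 22.3 against 21.5. Lower by 2-fold or more were piwil1, at 25.2 against 8.34 FPKM (log2 ratio -1.49), and zp3, at 44.6 against 16.01 FPKM (log2 ratio -1.42). tdrd6, whose Tudor protein acts in germ cells, stood at 7.6 against 37 FPKM (log2 ratio 2.14). btg4, which brings deadenylases to maternal RNA, was at 69.3 against 221 FPKM (log2 ratio 1.66). The 1 absent member was stm (starmaker, a protein of ear stones), at 36.6 against 0.1 FPKM (log2 ratio -5.09). wee1, a kinase gene that delays mitosis, stood at 33.1 against 8.94 FPKM (log2 ratio -1.78).

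In the RNA decay list, none of 89 kept genes was absent from the mutant library, against 2.48% of all kept genes. Of the 89, 73 (82.0%, against 73.5%) were within 2-fold. A further 13 (14.6%, against 18.1%) lay 2-fold or more above wild type, and 3 (3.37%, against 8.39%) as far below. The median log2 ratio was 0.40, against 0.20 for all kept genes. lsm1, a subunit of the decapping activator ring, stood at 8.51 FPKM in wild type against 41.9 in the mutant (log2 ratio 2.17). The decapping helicase gene ddx6 was at 5.47 against 23.35 FPKM (log2 ratio 1.91), and tnrc6c1, a partner of Argonaute in microRNA silencing, at 0.7 against 6.3 FPKM (log2 ratio 2.10). The deadenylase gene cnot8 was level, at 305 against 261 FPKM (log2 ratio -0.22). btg1 was the 1 gene at least 4-fold lower, at 30.7 against 5.25 FPKM (log2 ratio -2.34).

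The highest levels among genes higher in the mutant library were below those among genes that were lower, while the medians were alike. The most abundant gene at least 4-fold higher was at 235 FPKM there, whereas the most abundant gene at least 4-fold lower was at 2123 FPKM in wild type. The 325 genes at least 4-fold higher had a median of 15.8 FPKM in the mutant library and 2.06 in wild type. The widest difference was that of bcar1, a scaffold protein gene of cell-matrix adhesions, at 0.43 FPKM in wild type against 26.5 in the mutant (log2 ratio 4.27). txlnbb, a taxilin gene, stood at 0.56 against 25.05 FPKM (log2 ratio 4.06). fam129ba stood at 4.89 against 59.3 FPKM (log2 ratio 3.36), and papd7, a noncanonical poly(A) polymerase gene, at 6.7 against 66.2 FPKM (log2 ratio 3.12). ccdc69 was the most abundant of the 25 widest differences, at 12.97 against 108 FPKM (log2 ratio 2.96).

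Of 29 kept integrin, laminin and matrix genes, 14 were 2-fold or more above wild type (48.3%, against 18.1% of all kept genes), 7 of them by 4-fold or more (24.1%, against 3.06%). Of the 29, 5 were absent from wild type. These and every other kept member below 5 FPKM in wild type, such as gpc1b, were kept only through the mutant library. They had to be higher there, so the shares above are in part set by the filter. The median log2 ratio was 0.62, and 0.10 with no filter, where the genes added are below 5 FPKM in both libraries. The integrin gene itga4 was at 0.11 FPKM in wild type against 7.41 in the mutant (log2 ratio 2.92). The collagen gene col6a1 stood at 0.37 against 9.48 FPKM (log2 ratio 2.94), and the heparan sulfate proteoglycan gene gpc1b at 2.62 against 28.4 FPKM (log2 ratio 3.02). The group also held has2 and col28a1a at the low end, so it was not uniform. The nervous system list had values for 75 genes, of which 12 were kept. Of these, 7 were at least 2-fold higher (58.3%, against 18.1% of all kept genes). The median log2 ratio was 1.15, but 0.44 with a filter at 1 FPKM and 0 with none. The genes tbr1b, gad1a, neurod6b, neurod6a, dlg4 and nlgn1 were kept only through the mutant library, so they had to be higher there. tbr1b, a T-box gene of forebrain neurons, stood at 0.34 against 16.15 FPKM (log2 ratio 3.68). gad1a, which encodes the enzyme that makes the transmitter GABA, was at 0.15 against 12.9 FPKM (log2 ratio 3.59), and the neuronal differentiation gene neurod6b at 1.15 against 12.8 FPKM (log2 ratio 2.68). The neuron marker elavl3 was listed at 0 in the mutant library. In the same list the potassium channel gene kcnn1b was absent, at 21.1 against 0.46 FPKM (log2 ratio -3.92).

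Copies of the same gene could differ. Symbols that differ only in a last letter a or b gave 823 pairs with both genes kept, many of them duplicates from the ancient genome duplication of bony fishes, although some such symbols name unrelated genes. In 471 pairs both genes were within 2-fold. In 18 pairs 1 gene was at least 4-fold lower and the other was not, and in 5 pairs both were. In 52 pairs 1 gene was at least 4-fold higher and the other was not, and in 2 pairs both were. Gene by gene, 73.5% of all kept genes were within 2-fold, 3.92% lay 4-fold or more below wild type and 3.06% as far above. Whether copies differed more or less often than unrelated genes was not tested. fzd7a, a Wnt receptor gene, stood at 28.3 FPKM in wild type against 1.25 in the mutant (log2 ratio -3.70), whereas fzd7b, given above, was level. sox11a, a SoxC gene, stood at 43.7 against 1.72 FPKM (log2 ratio -4.04), and sox11b at 194 against 171 FPKM (log2 ratio -0.18). otx1a, a homeobox gene of the anterior embryo, was at 8.86 against 0.33 FPKM (log2 ratio -2.89), and otx1b at 78.9 against 187 FPKM (log2 ratio 1.23). Of the 18 pairs with 1 low copy, the low copy was the less abundant of the pair in wild type in 8. For yy1a and yy1b, zinc finger regulators, the levels were 19.3 against 1.76 FPKM (log2 ratio -2.88), and 46.01 against 44.5 FPKM (log2 ratio -0.05). The pairs low together were cxcr4, aplnr, cdkn1c, marcksl1 and atf4. Pairs picked here for their gap were chosen after the values were seen, and copies can share reads.

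**Figure D4:**
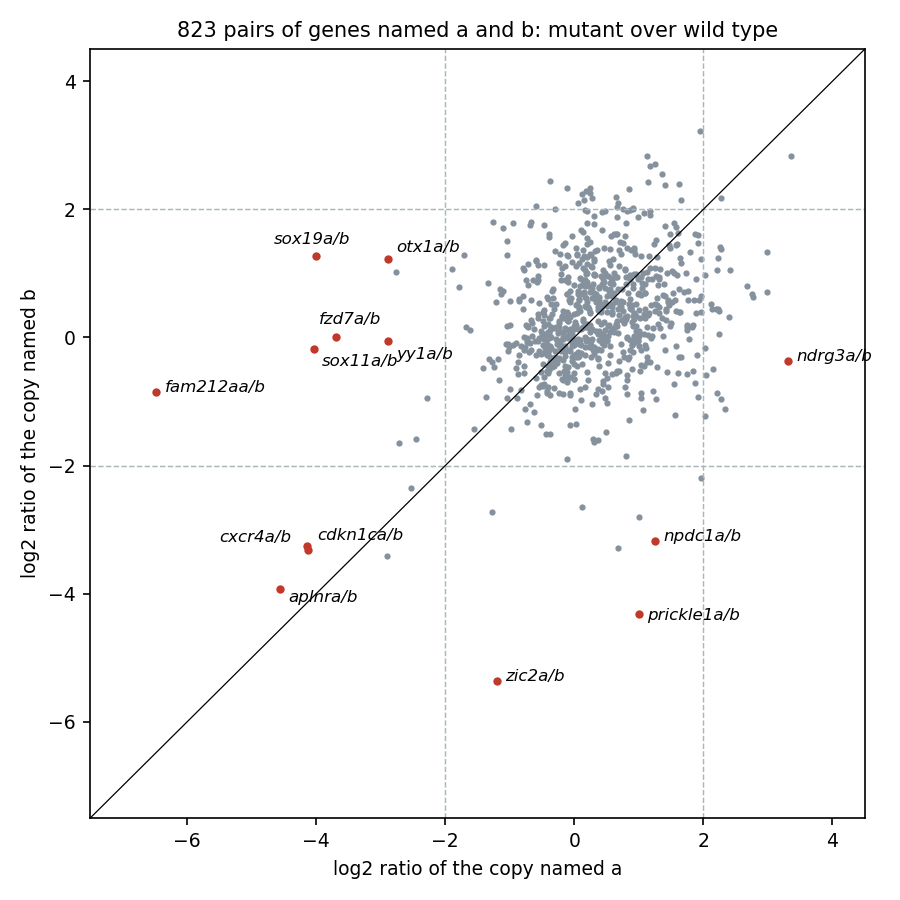
Log2 ratio of mutant over wild type for the copy named a (x axis) and the copy named b (y axis) of 823 pairs, with 1 point per pair, dashed lines at 4-fold and the line of equality. Named pairs are in red, such as fzd7 at -3.70 and 0.01 and aplnr at -4.56 and -3.93.

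The mutant library of 7 hpf, which did not choose these genes, showed where they stood later in the same genotype. Of the 264 genes absent at 4.3 hpf, 204 (77.3%) were at 5 FPKM or more at 7 hpf, 34 were between 1 and 5 FPKM, and 26 were still below 1 FPKM. Of all kept genes, 81.3% were at 5 FPKM or more at 7 hpf. Their median was 18.7 FPKM at 7 hpf, against 10.5 in wild type and 0.25 in the mutant library of 4.3 hpf, and 164 (62.1%) stood above wild type, against 41.2% of all kept genes. Since they were chosen for a low value at 4.3 hpf, standing above that value at 7 hpf is in part set by the choice. krt18 reached 759 FPKM, polr3gla 501 and tbx16 297. Among the 26 that were not, kcnn1b stood at 0.12 FPKM at 7 hpf. nrxn2a, a neurexin gene, had a wild-type level of 7.80 FPKM, and in the mutants it was at 0.62 FPKM at 4.3 hpf and 0.42 at 7 hpf. nup133 was at 1.91 FPKM at 7 hpf.

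Genes on the high side were chosen for a high value in the mutant library of 4.3 hpf, so lower values in another library are in part set by the choice, and their levels at 7 hpf are given as a description. Of the 234 genes at least 4-fold higher and not absent from wild type, the median was 20.4 FPKM in the mutant library of 4.3 hpf, 5.94 at 7 hpf and 3.19 in wild type, and 222 (94.9%) stood lower at 7 hpf than at 4.3 hpf, as did 64.7% of all kept genes. Of the 101 absent from wild type, 93 stood lower at 7 hpf, where 27 were at 5 FPKM or more. Still above wild type at 7 hpf were 162 (69.2%) of the 234 and 99 (98.0%) of the 101, against 41.2% of all kept genes. They were chosen for a low wild-type value, so these shares too are in part set by the choice. bcar1 was at 8.83 FPKM at 7 hpf, papd7 at 5.4 and ccdc69 at 13.96. A few stayed. col6a1 was at 9.29 FPKM, dnmt3aa at 14.6 and slc3a2b, an amino acid transporter subunit gene with 3.06 FPKM in wild type against 19.3 in the mutant (log2 ratio 2.32), at 130.3. Since all 3 libraries differ in age, genotype or stage tag, their parts in these courses cannot be told apart.

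**Figure D5:**
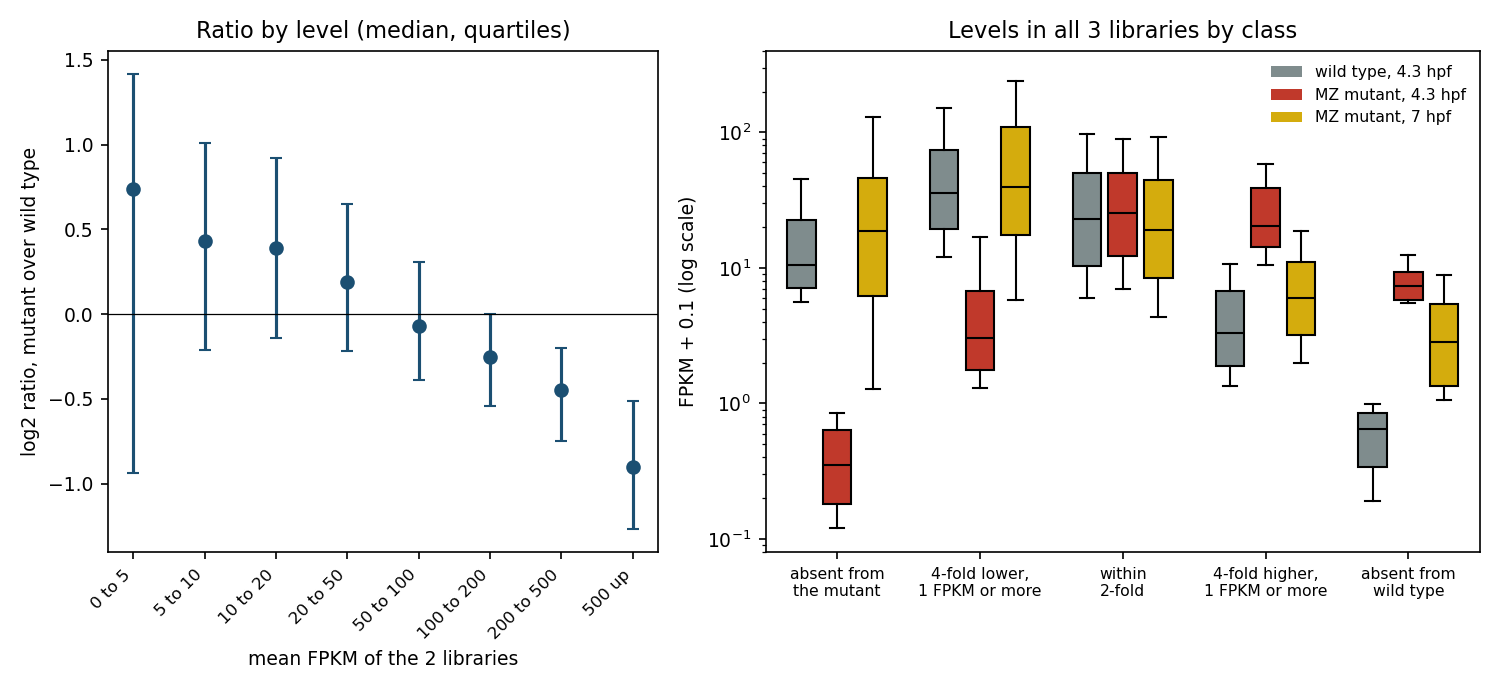
Left, median log2 ratio with quartiles (y axis) of kept genes in bins of their mean FPKM over both libraries (x axis), from 0.74 below 5 FPKM to -0.90 at 500 FPKM or more. Genes in the lowest bin reached 5 FPKM in 1 library only, so they had to differ. Right, FPKM + 0.1 on a log scale in the 3 libraries for 5 classes of genes, with boxes at median and quartiles and whiskers at the 10th and 90th percentiles. The absent class has medians of 10.5, 0.25 and 18.7 FPKM before 0.1 was added.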

How the data were processed

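RNA from dechorionated whole embryos was extracted with a column kit and sequenced, per the labels' protocols. The authors deposited 1 column of FPKM per library, rounded to 0.01, per the file headers. RSEM 1.2.8, Bowtie2 2.2.5, Trimmomatic 0.36 and the build GRCz11 are listed, without their roles, in the submitters' processing notes. Not given in the sources used here are poly(A) selection, strandedness and the treatment of reads shared between gene copies. Rows without values (1051) were left out. Libraries were grouped by title. The log2 ratio with a pseudocount of 1 was taken over genes that reached 5 FPKM in either library. FPKM carry no counts, so depth and counting error are unknown, and with 1 library per group there was no test.

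The comparison, its gene lists (44) and the roles were chosen with earlier results of these data known. List members came from the table's symbols or from synonyms in a RefSeq table of the assembly GRCz12tu, which held 91.5% of the gene IDs and otherwise gave gene type and order only. Symbols turned into dates (16) were read from it. Genes were named by a rule: the mutated genes, the 25 widest ratios in each direction at 10 FPKM or more, the 15 most abundant genes of each library, and per list all kept members up to 12, or else the 5 widest ratios in each direction and 4 abundant members within 2-fold. Further genes named (vent, ndr1, cxcl12a, fzd7b, mcm6l, drl, buc, otx1a, yy1a, yy1b and 1 unnamed locus) were picked after their values were seen. The genes ddx4, dnd1 and nanos3 are named as the other germ plasm markers. Some lists and genes are not reported here. Alternatives were pseudocounts of 0.1 and 5, filters at 1 and 20 FPKM, no filter, scaling to equal sums or by the median of ratios, and protein-coding genes only. The code was tested on simulated data. Python 3.11.15, numpy 2.4.6, pandas 2.3.3 and matplotlib 3.10.9 were used.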

Additional observations from a re-analysis of the deposited data

How the results depend on the processing

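The limits of the classes set the counts. With a pseudocount of 5 FPKM, 171 genes were at least 4-fold lower in the mutant library and 36 at least 4-fold higher. A pseudocount of 0.1 gave 493 lower and 540 higher. With a filter at 20 FPKM, 191 genes were at least 4-fold lower, 122 at least 4-fold higher, 4848 within 2-fold, 75 absent from the mutant library and 2 absent from wild type, of 6048 genes. With a limit of 1 FPKM the absent classes, which then need only 1 FPKM in the other library, held 1241 and 1173 genes. Without a filter 21397 of 25386 genes were within 2-fold, and the absent classes have no meaning there, so no value is given. These shifts follow from how many low genes each setting admits or damps. Scaling to equal sums moved the median of all kept genes from 0.20 to 0.29, and scaling by the median of ratios moved it to 0.05. All counts stayed within 1.5 times. The order of the 4-fold counts did change, with 397 lower and 403 higher at equal sums. Scaling by the median of ratios gave 446 lower and 237 higher. Of 43 lists with at least 5 kept genes, 9 changed the sign of their median under a scaling, none with a median beyond 0.14 in size, and over all settings 12 did, none beyond 0.16. List medians moved by more than 0.5 in 7 lists with no filter, in 6 at 1 FPKM, in 3 at 20 FPKM, and in 3 and 4 with pseudocounts of 0.1 and 5. Lists that were low in the mutant library were among these. With no filter the homeobox median went from -1.75 to -0.21 and that of T-box and Gata factors from -3.40 to -0.15. Keratin and enveloping layer genes went from -3.62 to -0.10, and chemokine and apelin genes from -3.20 to -0.17. At 1 FPKM these medians were -0.78, -0.61, -2.02 and -0.75. No paired analysis was possible because each group has 1 library.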
